A study of Mus musculus with 60 samples.

Results

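Firre is a long noncoding RNA gene of the mouse X chromosome. It was selected by its name, with its allele-specific values in these libraries already known, so that its changes under doxycycline are given here as a description and carry no p-value. It was 1 of 14383 genes, and 1 of 490 X-linked genes, listed in at least 1 of 60 RNA-seq libraries, and all 60 libraries listed it. All cells derived from the female F1 2–1 ESC line, in which 1 X chromosome comes from 129/Sv and the other from Cast/Ei, and all carried the doxycycline transactivator M2rtTA at the ROSA26 locus together with a doxycycline-inducible Xist transgene built from Cast/Ei sequence. ESCs were kept in 2i and LIF and either left untreated or given 2 µg/ml doxycycline for 5 days.

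The clones fall into 4 categories by the position of the transgene. Tg-E clones (87, with 2 untreated and 2 treated libraries, and 68, with 1 treated library) were 40,XX and carried it on the Cast/Ei X, at the Xist locus. Tg-X clones (85, 86, 109 and 190, 8 untreated and 8 treated libraries) carried a randomly integrated copy on the Cast/Ei X of a 40,XX,t(X;8) line, which in clone 109 lies next to the Xist locus. Per the study, this line, which also gave the Tg-X;8 clones, was partly trisomic for chromosome 8 and partly monosomic for X-linked genes. Tg-X;8 clones (339, 267 and 203b, 6 untreated and 5 treated libraries) carried it on the X;8 translocation product, whose X part is of 129/Sv origin. Tg-12 clones (228, 273 and 38, 6 untreated and 6 treated libraries) carried it on chromosome 12 in a 41,XX,dup12 line, so that neither X chromosome held a transgene. For clone 38 the chromosome comes from its label, and it was taken to be the line that the study calls 55-38, since the study lists no clone 38. Clone 160 (2 untreated and 2 treated libraries) was kept apart, because its label places the transgene on chromosome X and the study's list of clones on chromosome 12. Clones 267 and 160 also carried a Tsix-Stop allele on the 129/Sv X, which truncates the antisense repressor of Xist. Neurons at day 14 of differentiation came from lines 20 and 38, with 1 untreated and 1 treated library each, and their labels place the transgene on chromosome 12. The study's list of clones holds no line 20, so its karyotype was not known here, and that it derives from clone 55, as the name 55-38 has it for line 38, is an assumption. Every category is a set of single clones, and the study describes the ESC libraries of a clone and treatment as biological replicates.

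Firre RNA stays in the nucleus close to its own gene, and it binds the nuclear matrix protein Hnrnpu through a sequence that is repeated along the transcript. The Firre locus is bound by Ctcf and forms a very long loop with the Dxz4 macrosatellite on the inactive X chromosome. The gene has been described as escaping X inactivation in part, which makes its allelic response to Xist RNA of interest.

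In the RefSeq annotation of GRCm38, Firre (gene ID 103012) lies at chrX:50563120-50635321 on the minus strand and has 20 exons with a summed length of 5815 bases. The 7 exons numbered 4, 9, 10, 11, 14, 16 and 19 are 154 or 155 bases long, and over their 21 pairs the aligned sequences were 95.5% to 98.7% identical, with a median of 96.8%. Exon 5, of 146 bases, was 91.0% to 92.9% identical to them, and exons 12 and 13, of similar size, were 53.8% to 59.2% identical. The following lines give, 5′ to 3′ on the transcribed strand, 4 of the repeat exons and then exon 2, and the capitals mark the longest run that all 7 repeat exons share, which is 45 bases.
Exon 4, chrX:50615361-50615515: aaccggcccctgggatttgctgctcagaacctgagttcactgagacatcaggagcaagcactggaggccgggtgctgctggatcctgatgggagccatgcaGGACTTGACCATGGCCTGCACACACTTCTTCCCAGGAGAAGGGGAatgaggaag
Exon 11, chrX:50595461-50595615: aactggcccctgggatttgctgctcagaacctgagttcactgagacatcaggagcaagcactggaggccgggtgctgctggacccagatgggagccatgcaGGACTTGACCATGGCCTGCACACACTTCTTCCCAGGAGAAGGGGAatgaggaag
Exon 16, chrX:50577871-50578024: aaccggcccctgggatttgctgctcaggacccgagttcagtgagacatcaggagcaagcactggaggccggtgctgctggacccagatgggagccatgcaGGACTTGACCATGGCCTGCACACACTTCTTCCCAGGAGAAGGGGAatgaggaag
Exon 19, chrX:50567540-50567693: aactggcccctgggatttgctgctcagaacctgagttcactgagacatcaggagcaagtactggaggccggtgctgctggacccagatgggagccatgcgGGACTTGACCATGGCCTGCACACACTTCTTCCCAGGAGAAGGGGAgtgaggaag
Exon 2, chrX:50630891-50630995: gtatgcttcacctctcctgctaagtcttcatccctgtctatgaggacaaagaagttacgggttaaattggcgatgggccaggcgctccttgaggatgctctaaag

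These sequences bear on how Firre could be counted, because the reads were 43 bases long and only uniquely aligned reads were kept. The shared run, which exons 18 and 20 also hold, is longer than a read. A read that falls inside it has no unique place among the exons that hold it. Of the 788 windows of 43 bases within the 7 repeat exons, 325 (41.2%) occur once in the genome, and exon 11 has none. Of the 4975 windows over all 20 exons, 3726 (74.9%) occur once, including every window of exons 1, 2 and 3. The deposited tables name 1 exon for Firre in each library, which was exon 2 in 37 libraries, exon 5 in 9, exon 6 in 6, exon 9 in 4, exon 18 in 3 and exon 15 in 1. The positions of the polymorphisms behind each value were not analysed here.

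Depth varied between libraries, from 2284822 to 20637905 HTSeq-counted reads in ESCs and from 25057343 to 32336068 in neurons. Firre had between 112 and 1854 allele-specific reads in an ESC library (median 590, n = 48) and between 1539 and 4880 in a neuron library. The ratio of allele-specific to HTSeq-counted reads over all genes fell into separate ranges, from 0.267 to 0.298 in 19 of the 52 grouped libraries and from 0.319 to 0.342 in the other 33, a division that the labels do not name. All 8 untreated Tg-X libraries but 4 of the 8 treated ones lay in the upper range. For Firre itself this ratio had a median of 0.973 in ESCs, far above that of the library as a whole, with a highest value of 1.22. Its lowest values were 0.455 in an untreated library of clone 267 and 0.469 in a treated library of clone 160. Per the study's methods, allele counts were summed over the polymorphic sites of a gene. A read over several sites could therefore count more than once. Xist itself, whose reads come from the transgene and the endogenous gene together, was listed in 15 of 24 untreated ESC libraries, at 24.1 to 297 CPM, and in 24 of 24 treated ones. The treated Tg-X libraries had 509 to 2125 CPM of Xist. Those of the Tg-X;8 clones had 508 to 1870, and with the transgene on chromosome 12 the range was 182 to 638.

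Most allele-specific reads of Firre in untreated ESCs came from the 129/Sv allele. The Cast share, the fraction of allele-specific reads that carry the Cast/Ei base, ranged from 0.113 to 0.478 over the 24 untreated libraries, with a median of 0.212, whereas the median share of all X-linked genes in the same libraries ranged from 0.486 to 0.574. Firre lay below that median in 24 of 24 libraries, and so did the upper bound of its 95% Wilson interval. This interval covers counting error only and takes every count as a separate read. It is too narrow where a read was counted more than once. Among the 165 X-linked genes listed in every untreated ESC library with a mean of at least 20 reads, Firre had the third lowest median share, after Nono (0.159), a paraspeckle protein, and 1810030O07Rik (0.185), both picked out after their values were seen. The skew was present in every category and karyotype. The part of read alignment in this skew was not tested.

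Clone 267 stood apart from the other untreated clones. It gave 0.478 and 0.438, above every other untreated library. Next came clone 228, with 0.258 and 0.370, and the means of the remaining clones ran from 0.142 in clone 109 to 0.241 in clone 190, with steps between neighbours in this order that were smaller than the largest SD within a clone (0.048, clone 86). Clones 190, 85 and 339 lay at 0.241 ± 0.029, 0.237 ± 0.0012 and 0.227 ± 0.00044 (SD, n = 2 each), and clones 109, 87 and 38 at 0.142 ± 0.041, 0.143 ± 0.029 and 0.155 ± 0.038. Levels are given as CPM, the counts scaled to a common library total, which for an allele is the total of allele-specific reads. In clone 267, the 129/Sv allele had 50.6 and 106 allele-specific CPM of Firre against a median of 324 over all untreated ESC libraries. The value of 50.6 was the lowest of these libraries, in the one with only 0.455 allele-specific reads of Firre per HTSeq-counted read. The value of 106 lay above those of clone 160 (94.4 and 79.8) and of single libraries of clones 109 (94.8) and 38 (97.1). The Cast/Ei values of clone 267, 46.4 and 82.7, lay within the range of the untreated ESC libraries, which had a median of 79.7.

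**Figure D1:**
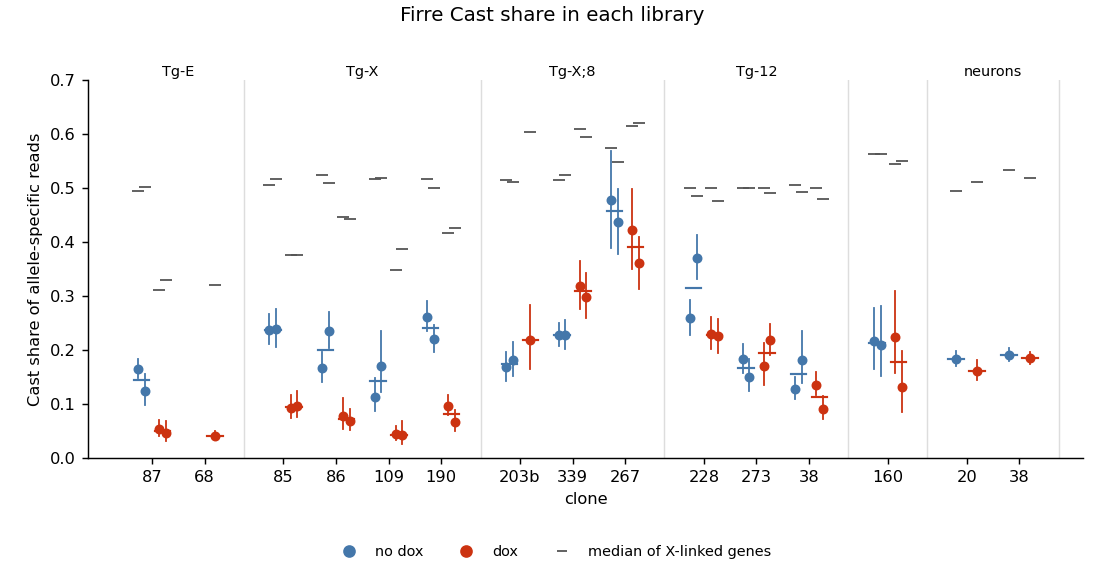
Cast share of Firre (y axis, fraction of allele-specific reads) in each library, by clone (x axis) and transgene category, without (blue) and with (red) doxycycline. Points are libraries, vertical bars 95% Wilson intervals, short coloured lines means of a clone, and grey dashes the median share of all X-linked genes in the same library. Firre lies below the grey dash in all libraries, and the treated libraries of the Tg-E and Tg-X clones lie at or under 0.096.

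When Xist was induced from the Cast/Ei X chromosome at its own locus, the Cast/Ei reads of Firre were lower with doxycycline while the 129/Sv reads overlapped. In clone 87 the Cast share was 0.164 and 0.123 without doxycycline and 0.053 and 0.046 with it, so that the libraries did not overlap. Cast/Ei reads of Firre were at 76.9 and 38.4 allele-specific CPM before and at 19.5 and 14.4 after treatment, a 3.21-fold lower level on the log2 scale with a pseudocount of 0.5 reads. The 129/Sv allele stood at 391 and 274 before and at 348 and 299 after, a ratio of 0.984. Clone 68, for which there was no untreated library, had 74 Cast/Ei reads among 1854, a share of 0.040 (95% Wilson interval 0.032 to 0.050). In bulk RNA, fewer cells with an active allele and less RNA per cell cannot be told apart.

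In each of the 4 Tg-X clones the Cast share was lower with doxycycline. Clone 85 went from 0.237 and 0.238 to 0.092 and 0.096. Clone 86 went from 0.234 and 0.166 to 0.077 and 0.068. Clone 109 went from 0.113 and 0.171 to 0.043 and 0.041, and clone 190 from 0.261 and 0.220 to 0.095 and 0.066. In none of these clones did treated and untreated libraries overlap, and the mean change over clones was -0.133, with a spread within clones and treatments of 0.026 (SD). With 2 libraries per treatment, a lack of overlap carries little weight by itself, and clone 228, without a transgene on the X, showed it too. How many other genes lacked overlap was not counted.

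Read by allele, the difference in the Tg-X clones lay again mainly on the Cast/Ei side. Cast/Ei Firre was lower by 3.59-fold in clone 85, 3.63-fold in clone 86, 4.22-fold in clone 190 and 2.09-fold in clone 109. The 129/Sv allele stood at 0.832, 0.865 and 0.864 of its untreated level in clones 85, 86 and 190. These values overlapped in clones 85 and 190, and in clone 86 they went from 318 and 339 to 289 and 279 without overlap. In clone 109 the ratio was 1.74, also without overlap, where 1 untreated library had only 94.8 CPM, the other had 252 and the treated ones 262 and 276. That library also had few informative reads, with 0.630 allele-specific reads of Firre per HTSeq-counted read. Some Cast/Ei reads of Firre, 15 to 94, were left in every treated library of the Tg-E and Tg-X clones, with a lowest share of 0.040, in clone 68. Per the study, only a part of the treated cells had an Xist-coated chromosome. The part of cells without one in these reads and in the fold changes above was not tested.

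**Figure D2:**
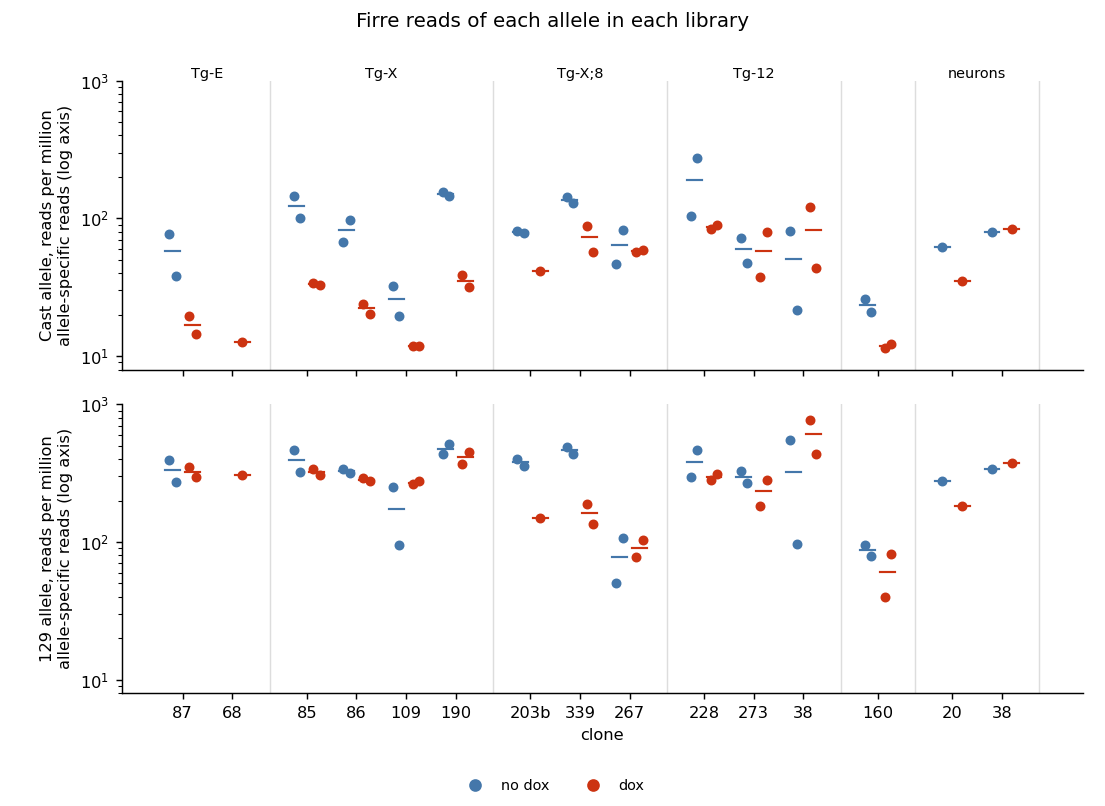
Firre reads of the Cast/Ei allele (upper panel) and of the 129/Sv allele (lower panel), in allele-specific CPM on a log axis, in each library by clone, without (blue) and with (red) doxycycline; short lines are clone means. In the Tg-E and Tg-X clones the upper panel drops to treated values of 11.9 to 39.0, and in clones 203b and 339 both panels drop.

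Compared with other X-linked genes, Firre had a large change in the ratio of Cast to 129 reads. In clones 87 and 109, however, the change in its share, which was low at the start, was smaller than that of most. In edgeR's quasi-likelihood fit of the Tg-X libraries, the log2 change of Cast over 129 reads was -1.71 (SE 0.11) for Firre and had a median of -0.64 over 156 X-linked genes, of which 4 had a lower value than Firre. In the fit of clone 87 it was -1.73 (SE 0.20) against a median of -0.98 over 226 X-linked genes, of which 45 had a lower value. Some of the genes fitted carried no allelic information, with at least 0.98 of their reads from 1 allele in every untreated library, which was so for 14 of the 156 in Tg-X and 1 of the 226 in clone 87. Without them, chosen after seeing the data, the median was -0.61 in Tg-X, with 2 genes lower than Firre, and -0.97 in clone 87, with 44. On the scale of the share itself, clone 87 moved by -0.094, and 169 of the other X-linked genes moved further down, with a median of -0.157. Clone 109 moved by -0.0995 against a median of -0.131, and 113 genes moved further down. In clones 85, 86 and 190, 71, 33 and 33 genes did so. In the same fits, 70 of the 226 X-linked genes tested in clone 87 (31%) were called, 69 of them lower (30.5%), and 79 of the 156 tested in Tg-X (50.6%) had a lower Cast to 129 ratio at an adjusted p under 0.05, and for Firre the fitted value ranged from -1.76 to -1.64 over 21 alternative fits of Tg-X and from -1.89 to -1.40 over 9 of clone 87.

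**Figure D3:**
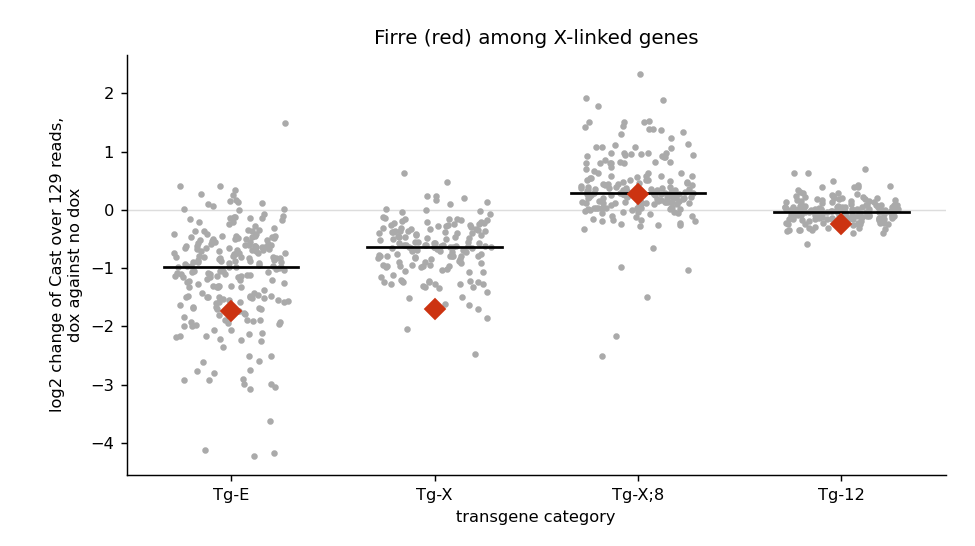
Log2 change of Cast over 129 reads with doxycycline (y axis) for each X-linked gene fitted (grey points, spread sideways at random) in the 4 transgene categories (x axis); black lines are medians over genes and red diamonds Firre. Firre lies at -1.71 in Tg-X, below the median of -0.64, and at 0.27 in Tg-X;8, close to the median of 0.29.

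In the Tg-X;8 clones, where Xist acted on the 129/Sv X, the allele that gave most of Firre's allele-specific reads was on the transgene chromosome. The total level of Firre was lower after treatment. Clone 339 had 185 and 167 CPM without doxycycline and 93.1 and 71.2 with it. Clone 203b had 137 and 136 without and 82.3 in its single treated library. Clone 267, whose level was low from the start, had 70.0 and 71.3 without and 56.6 and 56.6 with doxycycline. The treated libraries lay below the untreated ones in each of the 3 clones, by 2.16-fold, 1.66-fold and 1.25-fold. In the fit of the whole category the total level of Firre changed by -0.75 (SE 0.12) on the log2 scale, against a median of -0.15 over 186 X-linked genes, of which 6 had a lower value. Among all 6067 genes of this fit, 176 (2.9%) were called lower.

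The Cast share moved up in clones 339 and 203b, and both alleles were lower with doxycycline in these clones. Clone 339 went from 0.227 and 0.228 to 0.318 and 0.299, and clone 203b from 0.167 and 0.181 to 0.218. The 129/Sv allele of clone 339 dropped from 487 and 438 to 189 and 135 allele-specific CPM, a ratio of 0.346, and its Cast/Ei allele from 143 and 129 to 88.1 and 57.3, which is 1.91-fold lower. In clone 203b, the 129/Sv allele had a ratio of 0.392 and the Cast/Ei allele was 1.92-fold lower. In clone 339, 7 of the 218 X-linked genes compared had a lower change of the Cast/Ei level than Firre, whose value of -0.93 (log2) stands against a median of -0.02. The treated library of clone 203b also had few informative reads of Firre, 0.627 per HTSeq-counted read, where its untreated libraries had 1.16 and 1.02. The part of this ratio in the decline of both alleles was not tested.

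Clone 267 went the other way in its share, from 0.478 and 0.438 to 0.422 and 0.360, while the median X-linked gene of that clone gained 0.030. Of the other 196 X-linked genes compared in clone 267, 8 had a lower change. Its 129/Sv values, 50.6 and 106 before and 78.0 and 104 after treatment, overlapped. The mean change of the Cast share over the category was 0.019, within the spread of 0.025 (SD) inside clones and treatments, and it was 0.063 when clone 267 was left out. In the fit of all Tg-X;8 libraries the log2 change of Cast over 129 was 0.27 (SE 0.13) for Firre and had a median of 0.29 over 185 X-linked genes, 28 of which (15.1%) were called higher. Of these 185 genes 27 had nearly all reads from 1 allele, and without them the median was 0.33.

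**Figure D4:**
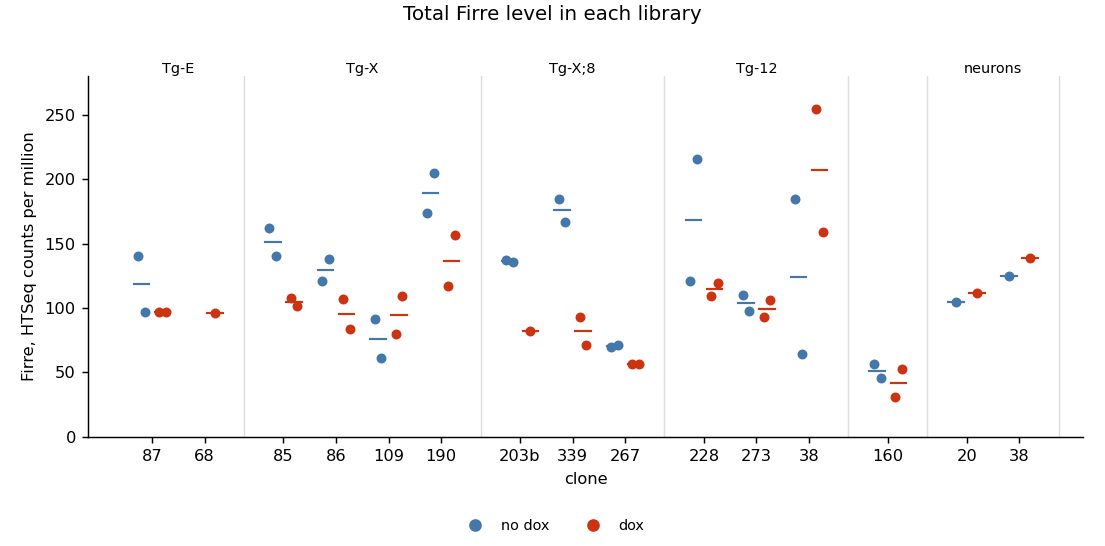
Total level of Firre (y axis, CPM of HTSeq counts) in each library by clone (x axis), without (blue) and with (red) doxycycline; short lines are clone means. Clone 339 drops from 185 and 167 to 93.1 and 71.2, and the libraries of clone 38 spread from 64.4 to 255.

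Where the transgene was on the Cast/Ei X, the total level of Firre moved less in the category fits than in that of Tg-X;8. In clone 87 it was 141 and 97.2 CPM without and 97.3 and 96.7 with doxycycline. The Tg-X libraries ranged from 61.0 to 205 (median 139, n = 8) without and from 80.1 to 157 (median 107, n = 8) with treatment. Clones 85, 86 and 190 were 1.44-fold, 1.37-fold and 1.39-fold lower with no overlap, and clone 109 overlapped with a ratio of 1.25. Tg-X;8 clone 267, at 1.25-fold lower, moved less than clones 85, 86 and 190. The fitted log2 change was -0.34 (SE 0.22) in clone 87 and -0.31 (SE 0.12) in Tg-X, close to the median of the X-linked genes in these fits, -0.40 and -0.30. In clone 87 the difference of the means, -0.27, was -0.0032 without the first untreated library and -0.54 without the second. The Tg-X fit called 41.3% of all 5723 genes changed, in either direction, and the treated libraries differed from the untreated ones in the ratio of allele-specific to counted reads given above. The part of that difference in the calls was not tested. Within the Tg-X libraries of the upper range alone, the mean change of Firre's Cast share was -0.135 and that of its log2 level was -0.14, against -0.28 with all libraries.

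The Tg-12 clones, in which no X chromosome carried a transgene, gave no common direction for Firre. In clone 228 the Cast share was 0.258 and 0.370 without and 0.229 and 0.225 with doxycycline, with no overlap. In clone 273 it was 0.182 and 0.150 without and 0.170 and 0.218 with, and in clone 38 it was 0.128 and 0.182 without and 0.135 and 0.091 with, so that both clones overlapped. The mean change of -0.034 was smaller than the spread of 0.042 (SD) inside clones and treatments. The fitted log2 change of Cast over 129 was -0.25 (SE 0.15), below all but 17 of the other X-linked genes of this category, whose median was -0.04. None (0%) of the 176 X-linked genes of this fit had an adjusted p under 0.05 in edgeR or in DESeq2, and 4 had an unadjusted p under 0.05 in edgeR. The total level changed by 0.03 (SE 0.24), with libraries from 64.4 to 216 (median 116, n = 6) without and from 92.9 to 255 (median 115, n = 6) with treatment. In clone 228 it was 121 and 216 without and 110 and 119 with treatment, 1.42-fold lower with no overlap, and its Cast/Ei level was 1.94-fold lower. These values of a clone without a transgene on the X are similar in size to the total level changes of clones 85, 86 and 190 and to the Cast/Ei changes of clones 339 and 203b. Averaged over clones, the log2 level change was 0.11, with a spread of 0.54 (SD), and it turned to -0.15 without the second untreated library of clone 38. Clone 38 alone spanned 185 and 64.4 without and 255 and 159 with doxycycline, and its library with 64.4 also had only 0.549 allele-specific reads of Firre per counted read.

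Clones 160 and 267, which share the Tsix-Stop allele on the 129/Sv X, had the lowest mean levels of Firre among untreated clones. Clone 160 had 56.2 and 45.7 CPM and clone 267 had 70.0 and 71.3, against 61.0 to 216 (median 138, n = 20) in the untreated libraries of the other clones, so that the groups overlapped through single libraries of clones 109 and 38. In clone 160 the 129/Sv allele had 94.4 and 79.8 and the Cast/Ei allele 25.9 and 21.1 allele-specific CPM, both below the medians of 324 and 79.7. Xist was higher in these untreated libraries than in any other untreated ESC library, with 297 and 181 CPM in clone 160 and 240 and 223 in clone 267. With doxycycline, the share of clone 160 was 0.223 and 0.130, around its untreated values of 0.215 and 0.209, and its level was 31.2 and 52.5 CPM. The Tsix-Stop allele and the other properties of these 2 clones cannot be told apart.

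In neurons, too, most Firre reads came from the 129/Sv allele. The untreated libraries gave Cast shares of 0.184 in line 20 and 0.190 in line 38, and the treated ones 0.161 and 0.184, while the median share of X-linked genes lay between 0.495 and 0.534. The treated library of line 20 had 0.549 allele-specific reads of Firre per counted read, where its untreated library had 1.05. Firre was at 105 and 125 CPM in untreated and at 112 and 139 in treated neurons, inside the range of 64.4 to 255 seen in the 4 ESC libraries of line 38. The fitted log2 difference of neurons from these ESCs was -0.31 (SE 0.28), with 34.6% of 6727 genes called in that fit. Xist had 597 and 1084 CPM in the untreated neurons.

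The neuron libraries, which were sequenced more deeply than the ESC libraries, listed markers of several cell types. All 5 pluripotency markers were lower in neurons by edgeR's test, where 18% of all genes were, among them Esrrb by -2.34 (log2, adjusted p = 2.0e-04) and Pou5f1 by -1.26 (adjusted p = 0.0052), yet their summed level of 1020 to 2019 CPM stood against 4374 to 4671 in ESCs of line 38. Neuron markers summed to 66.7 to 631 CPM against 40.4 to 46.7 in ESCs, with Stmn2 listed in no library. In all sums here, a marker that a library did not list counted as 0. The neuron libraries listed 11818 to 13036 genes, against 5871 to 10702 in the ESC libraries. Of the other lineages, all 3 glial markers were listed in at least 1 neuron library, with a summed level of 0 to 88.6, and all 4 endoderm and mesoderm markers, with 47.8 to 94.4. The part of these other cells in Firre's level was not tested.

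Around Firre, few genes gave enough reads. Of 10 other genes listed within 2 Mb, 3 entered the allele fit of clone 87 and 2 that of Tg-X, and the nearest of those tested, Gpc4, lies 1416 kb away. All 3 had a lower Cast to 129 ratio in clone 87, where 0.971% of all genes and 30.5% of X-linked genes were called lower. Both did so in Tg-X, where these shares were 2.44% and 50.6%. Rbmx2, which encodes a splicing factor, changed by -1.10 (SE 0.24) in clone 87 and by -0.82 (SE 0.13) in Tg-X, with adjusted p = 0.035 and 7.8e-05 in edgeR. DESeq2 called 0 of these 3 in clone 87 and both in Tg-X. The cell surface proteoglycan Gpc4 changed by -1.97 (SE 0.34) and -1.06 (SE 0.20), with adjusted p = 0.0067 and 7.2e-04, and its paralogue Gpc3 by -2.93 (SE 0.60) in clone 87 with adjusted p = 0.027. In Tg-X, Firre's change of -1.71 was lower than both neighbours, and in clone 87 its -1.73 lay between Rbmx2 and Gpc4. The 3 neighbours tested in clone 87 had median untreated Cast shares nearer to 0.5, with 0.457 for Rbmx2, 0.520 for Gpc4 and 0.538 for Gpc3. The total level of Rbmx2 was lower in Tg-X (log2 change -0.70, SE 0.09, adjusted p = 1.3e-05) and in Tg-X;8 (-0.39, SE 0.07, adjusted p = 0.0057), and the nearest listed gene, Mbnl3, was listed in only 6 libraries.

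The noncoding partners of Firre on the X chromosome were listed in too few libraries to be tested, and the reason was not examined. Crossfirre (Gm35612), its antisense neighbour, was listed in no library, and the Dxz4 transcript (4933407K13Rik) in 8 of 60. Of the proteins that bind Firre or shape chromosome loops, 9 of 11 were listed and 0 were called for the allelic ratio by edgeR or DESeq2 in any of the 4 categories, with 1 at an unadjusted p under 0.05 in edgeR in clone 87, 1 in Tg-X;8 and 0 in the other categories. Of all genes in these fits, 1.04% were called in clone 87, 3.64% in Tg-X, 0.957% in Tg-X;8 and 0.0778% in the chromosome 12 clones. In total level, 3 of the 8 tested in Tg-X were called, where 41.3% of all genes were. Ctcf was higher by 0.23 (SE 0.07, adjusted p = 0.014 in edgeR) and Yy1 by 0.18 (SE 0.07, adjusted p = 0.0497), a call that was lost in 16 of 20 alternative fits. The cohesin subunit Smc1a, which is X-linked, changed by -0.82 (SE 0.12, adjusted p = 4.8e-05 in edgeR). Its allelic ratio could be read only in clone 87 and Tg-12, with untreated Cast shares of 0.491 to 0.503 and 0.458 to 0.524. That share was at least 0.988 in every Tg-X library and 1 in every Tg-X;8 library. The part of the partial X monosomy of the t(X;8) line in the total level change of Smc1a was not tested. In the other 3 categories, where edgeR called 0.0138% (clone 87), 6.44% (Tg-X;8) and 0.0781% (Tg-12) of all genes, 0 of 9 were called for total level by edgeR or DESeq2, and 0 had an unadjusted p under 0.05 in edgeR. Hnrnpu, the binding partner of Firre RNA, changed by 0.09 in Tg-X and by 0.03 in Tg-X;8, with adjusted p = 0.34 and 0.88 in edgeR.

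Known escape genes, which remain active on the inactive X, offer another comparison. Of the 5 tested, edgeR and DESeq2 called 0 for the allelic ratio in clone 87, Tg-X;8 and Tg-12, where 4, 1 and 0 had an unadjusted p under 0.05 in edgeR and 1.04%, 0.957% and 0.0778% of all genes were called. Among X-linked genes, 31% were called in clone 87, 15.1% were called higher in Tg-X;8 and 0% were called in Tg-12. In Tg-X, where 2.44% of all genes and 50.6% of X-linked genes were called lower, 1 of the escape genes was lower. This was the RNA helicase Ddx3x with -0.42 (SE 0.09, adjusted p = 0.0021 in edgeR). Kdm5c, with a Cast share of at least 0.992 in every untreated Tg-X library and of 1 in every untreated Tg-X;8 library, carried no allelic information there. The median log2 change was -0.47 over the 5 in clone 87 and -0.22 over the other 4 in Tg-X, where Firre had -1.73 and -1.71. Autosomal genes that the Firre locus has been seen to contact, such as Eef1a1 and Atf4, were called for total level in 0 of 3 cases in Tg-X, where 41.3% of all genes were called, and in 0 of 3 in Tg-X;8, where 6.44% were, by edgeR or DESeq2 and also at an unadjusted p under 0.05 in edgeR. In neurons, 2 of 3 of these were lower than in ESCs, where 18% of all genes were, with Atf4 at -1.07 (SE 0.18, adjusted p = 0.0023) and Slc25a12 at -0.48 (SE 0.16, adjusted p = 0.042 in edgeR), the call for Slc25a12 being lost in 8 of 12 alternative fits.

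Over all 48 grouped ESC libraries, which share clones and treatments, the X-linked gene whose Cast share followed that of Firre most closely was Utp14a, a ribosome biogenesis factor (Pearson's r = 0.80). It was followed by the DNA polymerase subunit Pola1 (0.79), the glycolytic enzyme Pgk1 (0.78), Tmem164 (0.77) and Gpkow (0.77), among 126 genes with a median r of 0.56. In log2 level, the 5 closest of 4710 genes were R3hdm1, Xpnpep1, Fcho2, Smc5 and Arhgap19, with r from 0.61 to 0.66 and a median of 0.01 over all genes. Of these, Xpnpep1, Smc5 and Arhgap19 lie on chromosome 19, and the part of chromosome copy number in these correlations was not tested. Leaving out the 2 libraries farthest from Firre's median share or level left r between 0.76 and 0.85 for the first set and between 0.54 and 0.64 for the second.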

How the data were processed

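RNA-seq of mouse ESC clones and neurons was deposited as 1 table per library. Per the submitters' processing notes and the study's methods, the authors built Cast/Ei and 129/Sv genomes from mm10, aligned reads of 43 bases to both with TopHat2 (2.0.6), kept the better alignment of each read where it was unique, and counted genes with HTSeq (0.6.1). The deposited values used here are the counts of reads over each gene and the counts of Cast and 129 reads at polymorphic bases. The Cast share is the fraction Cast/(Cast + 129) computed from these deposited counts.

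Firre and the gene lists were chosen with earlier results of these data known. The named genes were Firre, the genes of the lists, all genes within 2 Mb of Firre, and the 5 genes most correlated with it in share and in level. Genes listed in every library compared, with a mean of at least 20 reads, entered edgeR (4.0.16) quasi-likelihood fits in R 4.3.3 with Benjamini-Hochberg adjustment. DESeq2 (1.42.0) was the alternative. Clone was a covariate in the fits of treatment. In the fit of neurons against ESCs the covariate was treatment, so line 20, present only as neurons, could not be told apart from cell type. Calls required an adjusted p under 0.05. Levels are CPM, and Wilson intervals have a nominal 95% coverage, cover counting error only and take every allele-specific count as a separate read. Exons were read from RefSeq GRCm38. The Tg-X allele fit, checked on simulated data with 200 genes changed 2-fold, recovered 98% of them with 12 false calls among 5737 genes. The simulated share of a gene was the same in all clones and varied between libraries by counting error only, so the check was easier than the data. The allele fits of the other categories were not simulated. The fit of neurons against ESCs recovered 83%, with 6 false calls among 6727 genes. Of 60 libraries, 8 of clone 292 whose labels disagree on the cell type entered no comparison, and clones 160 and 68 entered no fit of the main comparisons.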

Additional observations from a re-analysis of the deposited data

Results flagged for a closer look

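In 6 groups of 5 to 8 libraries, each examined in 3 measures for a value far from the rest, 2 of the 18 comparisons gave one, where chance gives about 1 in 20. In both cases the value was the number of allele-specific Firre reads per HTSeq-counted read, which was 0.630 in the second untreated library of clone 109, the lowest of 8 Tg-X libraries, and 0.549 in the second untreated library of clone 38, the lowest of 6 Tg-12 libraries. Clone 267 differed from the other Tg-X;8 clones in that its Cast share moved by -0.067, while clones 203b and 339 moved by 0.044 and 0.081, and this difference was not tested. The 8 libraries of clone 292, which were in no comparison, all had Firre reads of both alleles, with at least 381 allele-specific reads each.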

How the results depend on the processing

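The sign of Firre's log2 level change turned only in Tg-12, where 0.11 lies within the spread of 0.54 (SD): it was -0.03 without the first untreated library of clone 228, -0.15 without the second of clone 38, -0.0052 without the first treated one of clone 38, -0.00031 with clone 160 added and -0.015 within libraries with over 0.3 allele-specific reads per HTSeq-counted read. No called change of a named gene turned its sign. The change of Firre's Cast share in Tg-X;8 was 0.063 without clone 267, its log2 level change there was -0.58 within libraries over that ratio, an alternative chosen after seeing the data, and the change of share in neurons was -0.0088 with the reads of both lines pooled and -0.023 to -0.0060 with 1 line left out. X-linked genes called for the allelic ratio numbered 148 in clone 87 and 51 in Tg-X;8 when adjusted over X-linked genes alone, against 70 and 28, and DESeq2 called 24 and 16. For total level, DESeq2 called 41 genes in clone 87 and 106 in Tg-12, against 1 and 4, without a minimum of reads 3 were called in clone 87, with clone 160 added 10 in Tg-12, and without the neurons of line 20 there were 1331 calls against 2327. Whether replicate numbers pair the libraries was left undecided. The correlation of deviations between the first-listed untreated and treated library ran from -0.59 to 0.74 over 11 clones and was over 0.1 in 7. In clone 86, at -0.22, these libraries had different replicate numbers. A replicate block gave 44 allelic calls in clone 87 and 18, 148 and 0 total level calls in clone 87, Tg-X;8 and Tg-12. With single libraries left out, allelic calls ranged from 28 to 71, 67 to 81, 19 to 28 and 0 to 0 (clone 87, Tg-X, Tg-X;8, Tg-12), and total level calls from 9 to 80, 2028 to 2489, 213 to 591 and 0 to 159, and from 1258 to 2484 for neurons. Firre's share change then lay between -0.115 and -0.073, -0.141 and -0.124, 0.0070 and 0.030, and -0.052 and -0.015. Its log2 level change lay between -0.54 and -0.0032, -0.36 and -0.21, -0.78 and -0.66, and -0.15 and 0.36. The causes of these differences were not tested. In clone 87, with 2 libraries per treatment, the calls for Rbmx2 and Gpc3 were lost in 5 of 9 and 4 of 8 alternatives.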

Other observations

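Libraries of clone 292, whose labels disagree on the cell type, had Cast shares of Firre from 0.121 to 0.249 (median 0.164, n = 8) and levels of 77.0 to 116 CPM. The Cast share least like that of Firre over the 48 ESC libraries was that of G530011O06Rik, with r = -0.33.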
